A study of Homo sapiens with 24 samples.

Results

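The 6 libraries described here are the pull-down libraries collected 72 h after transfection, 3 with a miR-497-5p mimic and 3 with a control mimic, out of 24 libraries in the series. They were chosen by their labels alone, and the RNA-seq libraries of the same cells were not subtracted. The cells were H2052, an established line from human pleural mesothelioma, which arises in the membrane around the lungs. All 6 libraries came from cells that received 20 nM of a mimic carrying biotin at its 3′ end, delivered with the lipid reagent RNAiMAX. In the 3 libraries called miR-497-5p here the mimic was labelled miR-497-5p-RE, a suffix that the sources used here do not explain, and in the other 3 it was a scrambled sequence that targets no transcript by design. Streptavidin beads caught the biotin in a cytoplasmic extract, and the RNA that came with it was made into poly(A) libraries. The rest of the series, used below for comparison alone, holds pull-down libraries at 12 h and RNA-seq libraries, which the labels call input, at both times. A mimic raises a microRNA far above what a cell makes itself, and H2052 is 1 line, which limits both as a model of the tumour.

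MicroRNAs guide Argonaute proteins to messenger RNAs, mostly through pairing between the seed at the 5′ end of the microRNA and sites in 3′ untranslated regions (UTRs), and the paired transcripts are translated less and decay faster. miR-497-5p belongs to the miR-15/16 family, which is known for restraining the cell cycle in many tissues and is often reduced in mesothelioma. A pull-down through biotin on the mimic is meant to retain transcripts that are held in such complexes, so its counts depend on both the binding and the amount of each transcript in the extract. The mature sequences of miR-497-5p and of 5 relatives are shown because they share the seed that the site counts below rest on. They come from the RefSeq annotation of GRCh38.p14, and capitals mark bases 2 to 8, the seed.
miR-497-5p: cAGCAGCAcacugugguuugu
miR-195-5p: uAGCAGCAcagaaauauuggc
miR-424-5p: cAGCAGCAauucauguuuugaa
miR-15a-5p: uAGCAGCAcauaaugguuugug
miR-15b-5p: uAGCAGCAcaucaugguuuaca
miR-16-5p: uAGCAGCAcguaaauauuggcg
All 6 share the seed AGCAGCA. miR-497-5p is encoded on the minus strand of chromosome 17, at chr17:7017979-7017999, beside miR-195-5p at chr17:7017667-7017687.

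A full match to the seed plus an A reads TGCTGCTA in the transcript and is called an 8mer site. A match without that A is TGCTGCT (7mer-m8), a match to 6 seed bases followed by the A is GCTGCTA (7mer-A1), and those 6 letters alone, GCTGCT, are a 6mer. Each gene was placed by the best of these words on the sense strand of the 3′ UTR of its MANE Select transcript in GENCODE release 44 (GRCh38), an 8mer containing all the others. Among the 14005 genes tested that have such a UTR, 687 (4.91%) held an 8mer, 2750 (19.6%) a 7mer-m8 at best, 513 (3.66%) a 7mer-A1, 2295 (16.4%) a 6mer and 7760 (55.4%) none. The windows below are the 8mers of genes that changed with the smallest p and a mean of at least 5 CPM (read counts scaled to the size of the library), 6 that were higher with miR-497-5p and 3 that were lower. Each window runs 5′ to 3′ on the transcript's strand, and capitals mark the 8mer. A match of letters is a description of the UTR and not a measured binding site.
NSMF: ttaactagttaagcactaTGCTGCTAgt
HMGA2: agtctagtacttattacaTGCTGCTAta
IL7R: ccaagacagtgattctctTGCTGCTAcc
PRRC2C: agaacctggaaaagctgtTGCTGCTAtt
PAPPA: ttgccttgggaccacattTGCTGCTAct
PHACTR2: atttttttaaagttggatTGCTGCTAtt
ARL2: tcctccaccccagcctgcTGCTGCTAct
NECTIN1: ctcccctcccctccctggTGCTGCTAtt
CC2D1B: gcctttgtacataagagaTGCTGCTAcc
In GRCh38 the windows of the higher genes lie in the 3′ UTRs of NSMF at chr9:137449000-137449027 (minus strand), HMGA2 at chr12:65964576-65964603 (plus strand), IL7R at chr5:35877471-35877498 (plus strand), PRRC2C at chr1:171593192-171593219 (plus strand), PAPPA at chr9:116397431-116397458 (plus strand) and PHACTR2 at chr6:143824750-143824777 (plus strand). Those of the lower genes lie in the 3′ UTRs of ARL2 at chr11:65021958-65021985 (plus strand), NECTIN1 at chr11:119663004-119663031 (minus strand) and CC2D1B at chr1:52353119-52353146 (minus strand). The windows were picked from higher and from lower genes, so they do not show whether an 8mer went with a direction.

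The miR-497-5p libraries held 22358295, 8262425 and 21339091 counts, and the control libraries held 23552252, 30650982 and 23862847. miR-497-5p replicate 2 was the shallowest of the 6. Log2 CPM correlated at 0.933 to 0.942 between the miR-497-5p libraries, at 0.947 to 0.95 between the control libraries and at 0.923 to 0.936 between the groups. Libraries of the same group differed by more than counting error (chi-square over its degrees of freedom, 7.2 to 13.7), and each was counted as 1 sample. Whether replicates were separate cultures is not stated in the labels, so the spread among replicates may be technical. The p-values rest on 1 estimate of that spread from all 12 pull-down libraries, those at 12 h included. Of 19 mesothelial markers 18 had counts in at least 1 of the 6 libraries and ITLN1 was at 0 in all of them. UPK3B, KRT5 and HAND2 stayed below 1 CPM in all 6. MSLN, mesothelin, had 178, 197 and 176 CPM per total count in the miR-497-5p libraries against 167, 176 and 170 in the control libraries, while WT1 (1.78 to 5.35 CPM) and CALB2 (0.515 to 4.72 CPM) were low in all 6. Of 16 mesothelial markers tested KRT19 and VIM were higher with miR-497-5p and GATA4 and KRT18 lower, with 1 lower without any 1 control library and none without miR-497-5p replicate 2 or with a trend on exon length taken out. With the 6 libraries fitted alone 4 of the markers were lower. The summed mesothelial markers were 6300, 6350 and 6290 CPM with miR-497-5p against 5450, 5400 and 5460 CPM in controls. Within that sum VIM had 1350, 1400 and 1330 CPM per total count against 693, 694 and 703 in controls. KRT19 had 1500, 1450 and 1430 CPM against 969, 990 and 983. KRT18 went down, with 1530, 1450 and 1550 CPM against 1870, 1820 and 1800. The median log2 fold change of the 16 markers tested was -0.09, so the higher sum was not shared by the list. The 33 squamous epithelial markers summed to 141, 135 and 121 CPM with miR-497-5p against 134, 141 and 152 CPM in controls, with 13 of them, the cornified-layer genes SPRR3, SPRR1A and CRNN included, at 0 in all 6 libraries. Leukocyte (0.805 to 2.89 CPM) and endothelial (0.712 to 2.28 CPM) markers were near 0, and erythroid markers summed to 2.38 to 3.36 CPM in 5 libraries and to 12.5 CPM, or 103 counts, in miR-497-5p replicate 2.

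At 72 h the miR-497-5p pull-down differed from the control pull-down over a broad set of genes. Of 17477 genes tested, 1776 (10.2%) were higher with miR-497-5p and 2194 (12.6%) were lower, 22.7% in all, at an adjusted p under 0.05 in edgeR's quasi-likelihood test. The rule applies to every call below, and a log2 fold change is miR-497-5p over control, ± its standard error, with 3 libraries in each group. Changes were moderate, with a median log2 fold change of 0.81 among the higher genes, -0.77 among the lower ones and 0.00 over all genes tested. In 6200 genes (35.5%) the groups did not overlap, 2995 (17.1%) with miR-497-5p above control and 3205 (18.3%) below. At a mean of 5 CPM or more, 1548 were higher and 1967 lower, of which 394 and 444 changed at least 2-fold. At lower levels the fitted changes spread widely, and 82 of the higher genes had no count in any control library while 53 of the lower genes had none in any miR-497-5p library, so their fold changes are not given.

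**Figure D1:**
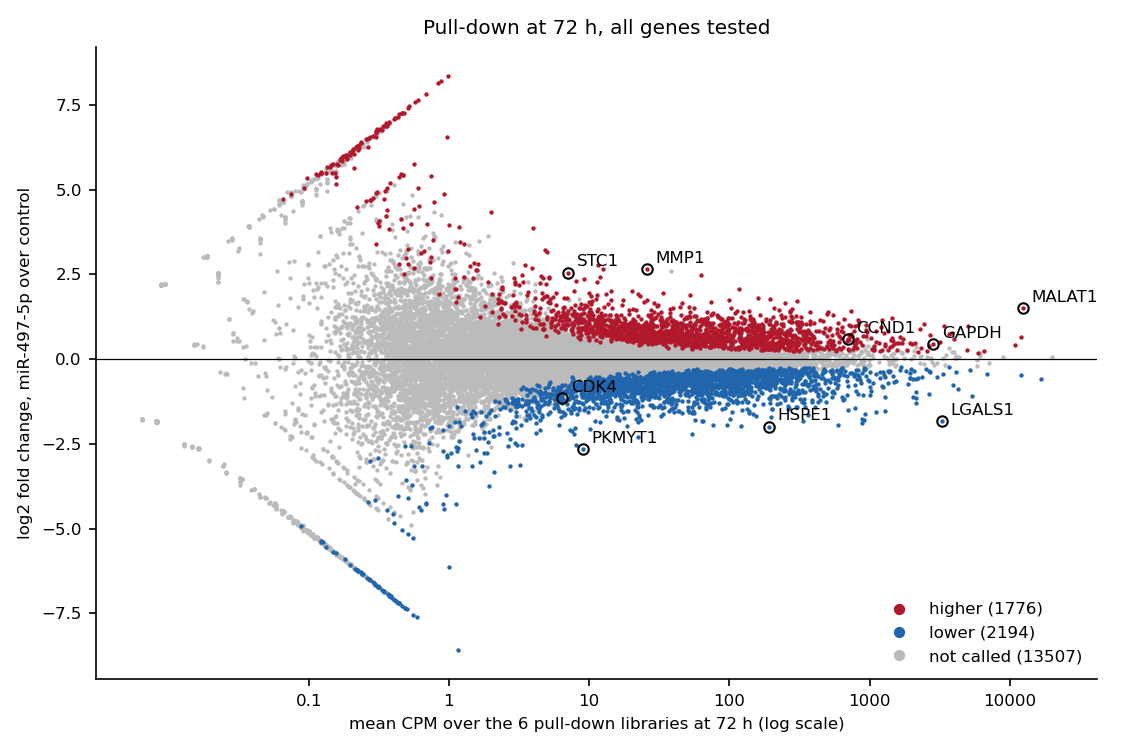
Log2 fold change in the 72 h pull-down, miR-497-5p over control, against the mean CPM over the 6 libraries on a log scale, 1 point per gene tested; red marks the 1776 higher genes, blue the 2194 lower genes and grey the genes that did not pass, and the 255 genes with no count at 72 h are not drawn. MALAT1, at the far right, and MMP1 and STC1 lie above 0, and PKMYT1, CDK4, HSPE1 and LGALS1 lie below it.

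The series names 6 genes in its title and design text, and of these CCND1 and GAPDH were called higher in the miR-497-5p pull-down and PKMYT1 and CDK4 lower. PKMYT1 (ENSG00000127564, chromosome 16, 2968024 to 2980539 in GRCh38), which encodes a membrane kinase that holds CDK1 inactive before mitosis, had 1.43, 4.05 and 2.55 CPM in the miR-497-5p libraries against 15.2, 20.0 and 11.1 CPM in the control libraries. It was the lowest of the genes at 5 CPM or more (-2.65 ± 0.27, adjusted p 5.62e-08), with no overlap between the groups. Its MANE Select 3′ UTR held no 6mer, and its coding sequence held a 6mer at best. WEE1 (ENSG00000166483, chromosome 11, 9573681 to 9593457 in GRCh38), the nuclear kinase with the same substrate and an 8mer in its UTR, had 8.41, 2.16 and 5.09 CPM with miR-497-5p against 3.69, 4.00 and 5.78 CPM in controls. The WEE1 libraries with miR-497-5p lay on both sides of the controls, and the difference was not called (0.29 ± 0.32, adjusted p 0.604). CCND1 (ENSG00000110092, chromosome 11, 69641087 to 69654474 in GRCh38), cyclin D1, which carries CDK4 through G1, had 864, 795 and 867 CPM with miR-497-5p against 554, 559.5 and 568 CPM in controls. All 3 miR-497-5p values of CCND1 lay above all 3 controls (0.59 ± 0.09, adjusted p 3.62e-05), and its UTR held an 8mer. CDK4 (ENSG00000135446, chromosome 12, 57747727 to 57756013 in GRCh38) itself went the other way, with 3.07, 5.8 and 3.68 CPM against 9.88, 6.91 and 9.25 CPM in controls (-1.14 ± 0.20, adjusted p 8.76e-05). Its UTR held no 6mer, while its coding sequence held a 7mer-m8. CDK4 overlaps TSPAN31 on the other strand, and the labels do not say whether counting used the strand, so its level is uncertain. VEGFA, a growth factor for blood vessels with an 8mer, had 21.9, 33.8 and 13.6 CPM with miR-497-5p against 19.3, 23.1 and 15.9 CPM in controls, overlapping groups that did not differ in the test (0.23 ± 0.28, adjusted p 0.628). GAPDH, the glycolytic enzyme that the design text uses as housekeeping gene, had 3308, 3085 and 3480 CPM with miR-497-5p against 2293, 2489 and 2436 CPM in controls and was called higher (0.45 ± 0.10, adjusted p 0.00136). Its RNA-seq effect was larger (0.69), and the pull-down effect less that of RNA-seq was -0.26 (adjusted p 0.00133).

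**Figure D2:**
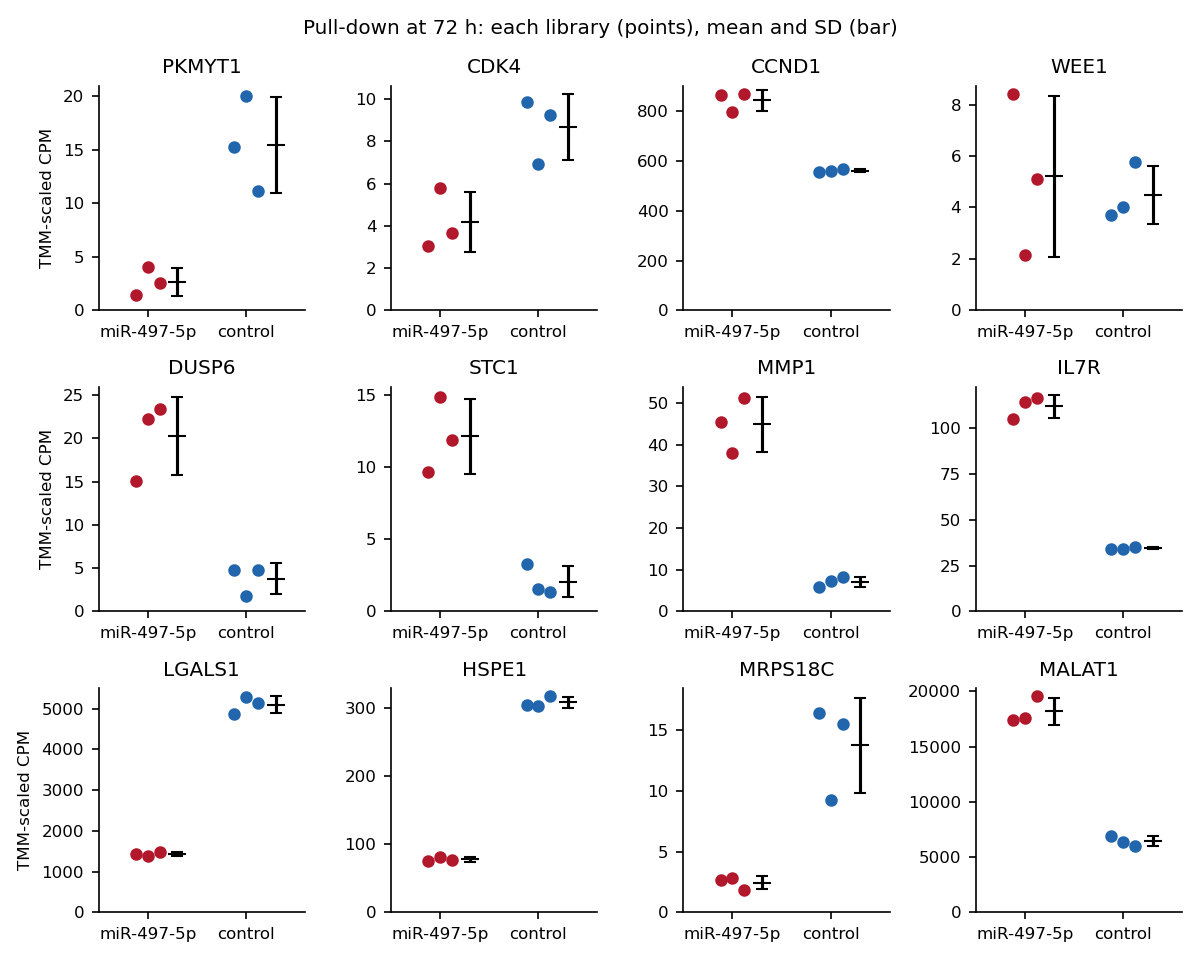
TMM-scaled CPM of 12 genes in each 72 h pull-down library (points), miR-497-5p on the left and control on the right of each panel, with the mean and SD of the 3 libraries beside them; axes start at 0 and differ between panels. The 3 points of each group stand apart in 11 panels and overlap for WEE1.

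When only means of at least 5 CPM and groups without overlap were considered, 10 genes stood out as the lowest with miR-497-5p. After PKMYT1 came MRPS18C, a protein of the mitochondrial ribosome, with 2.64, 2.83 and 1.81 CPM against 16.4, 9.2 and 15.5 CPM in controls (-2.53 ± 0.23, adjusted p 9.1e-09). NEURL1B, a ubiquitin ligase of the Notch pathway, had 7.19, 6.08 and 9.05 CPM with miR-497-5p against 36.4, 39.0 and 36.1 CPM in controls (-2.30 ± 0.20). CDCA3, an adaptor for the degradation of mitotic regulators, had 20.7, 18.2 and 17.9 CPM with miR-497-5p against 80.6, 97.8 and 86.7 CPM in controls (-2.22 ± 0.13). The same group held the spindle protein PSRC1 (-2.08), the kinetochore protein SPC25 (-2.02), the cell-surface protein LY6K (-2.22), TPRG1L (-2.07), the RNA ENSG00000233393 (-2.11) and HSPE1, the small chaperonin of the mitochondrial matrix. HSPE1 had 74.8, 82.0 and 76.4 CPM with miR-497-5p against 304, 303 and 317 CPM in controls, a close set of values within each group (-1.99 ± 0.09, adjusted p 1.84e-13). The smallest p of the comparison belonged to LGALS1 (chromosome 22, 37675608 to 37679806), galectin-1, a secreted lectin. LGALS1 had 1422, 1396 and 1487 CPM with miR-497-5p against 4879, 5293 and 5140 CPM in controls (-1.83 ± 0.07, adjusted p 8.6e-15). The next smallest among lower genes were the histone gene H2AX (-1.88) and the ribosomal protein genes RPS26 (-1.77) and RPL35A (-1.61), with HSPE1.

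Among the 10 highest genes by the same rule were MMP1 and SATB1. MMP1, the interstitial collagenase, had 45.4, 38.1 and 51.3 CPM with miR-497-5p against 5.94, 7.18 and 8.17 CPM in controls (2.67 ± 0.17, adjusted p 1.48e-11). SATB1, a chromatin organiser, had 18.9, 24.98 and 20.6 CPM against 5.39, 1.9 and 2.98 CPM in controls (2.65 ± 0.36, adjusted p 4.2e-06). With them stood the hormone STC1, stanniocalcin-1 (2.56), the ERK phosphatase DUSP6 (2.42), CREBRF, a regulator of the CREB3 factor (2.30), GOLGA7B (2.37), SLC35G1 (2.39), PAQR9-AS1 (2.43) and ENSG00000235609 (2.50). That last RNA, annotated as noncoding on chromosome 21 (14818843 to 15014430), had 98.3, 103 and 120.1 CPM with miR-497-5p against 13.8, 21.7 and 21.3 CPM in controls. RBPJ, the DNA-binding partner of Notch, had the smallest p among higher genes, with 443, 447 and 498 CPM with miR-497-5p against 142, 140.5 and 139 CPM in controls (1.72 ± 0.09, adjusted p 1.08e-12). MSRB3, a methionine sulfoxide reductase (1.65), NEMF of ribosome quality control (1.82), MMP1 and NSMF (1.42) followed it. NSMF, which signals from NMDA receptors to the nucleus in neurons, had 1077, 1034 and 1099 CPM with miR-497-5p against 365, 419 and 413 CPM in controls.

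The other genes whose sites are printed above differed between the groups as follows. HMGA2, a chromatin protein of embryonic and tumour cells, had 159, 199 and 209 CPM with miR-497-5p against 46.2, 47.4 and 41.3 CPM in controls (2.07 ± 0.14, adjusted p 5.78e-11). IL7R, the receptor chain for interleukin 7, had 105, 115 and 117 CPM with miR-497-5p against 34.3, 34.0 and 35.3 CPM in controls (1.70 ± 0.14, adjusted p 1.09e-09). PAPPA, a protease that frees insulin-like growth factors, had 104, 70.1 and 72.8 CPM with miR-497-5p against 26.1, 18.0 and 22.4 CPM in controls (1.90 ± 0.19, adjusted p 4.04e-08). PHACTR2, which binds actin and a protein phosphatase, had 124, 103 and 124 CPM with miR-497-5p against 46.8, 52.2 and 50.2 CPM in controls (1.24 ± 0.14). PRRC2C, a protein of stress granules, had 652, 592 and 658 CPM with miR-497-5p against 313, 289.8 and 276 CPM in controls (1.11 ± 0.10). These 5, with NSMF, are the higher genes of the printed windows, and the next 3 are the lower ones. ARL2, a GTPase of tubulin folding with a pair of 8mers in a UTR of only 329 bases, had 101, 83.6 and 94.0 CPM with miR-497-5p against 298, 301 and 312 CPM in controls (-1.71 ± 0.13, adjusted p 5.11e-10). NECTIN1, a cell adhesion molecule, had 47.3, 43.5 and 55.1 CPM with miR-497-5p against 113, 118 and 124 CPM in controls (-1.28 ± 0.13). CC2D1B, an endosomal sorting protein, had 33.7, 29.7 and 35.2 CPM with miR-497-5p against 89.2, 85.5 and 88.0 CPM in controls (-1.41 ± 0.14). In these 9 genes no miR-497-5p value overlapped a control value.

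Of 45 published targets of the miR-15/16 family, all tested, 6 were higher in the miR-497-5p pull-down and 11 lower (median log2 fold change -0.11, against 0.00 over all genes, of which 10.2% were higher and 12.6% lower). The higher ones included HMGA2, SMURF2, E2F3, CCND1 and CCND3. SMURF2, which tags TGF-β receptors and Smad proteins for degradation, had 364, 388 and 410.4 CPM with miR-497-5p against 163, 154 and 182 CPM in controls (1.22 ± 0.10). E2F3, an activator of S-phase genes with an 8mer, had 74.6, 83.4 and 89.2 CPM with miR-497-5p against 32.0, 22.9 and 32.7 CPM in controls (1.50 ± 0.17, adjusted p 3.54e-07). The lower ones included ARL2, PHF19, MAP2K1, UCP2, FASN, CDK4, CARM1, FURIN, CHEK1 and JUN. PHF19, a polycomb protein, had 77.0, 65.2 and 68.6 CPM with miR-497-5p against 189, 204 and 193 CPM in controls (-1.47 ± 0.12, adjusted p 1.21e-09). CHEK1, the DNA damage kinase with an 8mer, had 9.46, 7.96 and 8.88 CPM against 17.7, 16.9 and 15.0 CPM in controls (-0.91 ± 0.21, adjusted p 0.0019). At 12 h the pull-down called 6 of the 45 higher and none lower, against 0.326% and 0.269% of all genes.

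Most of the called transcripts of the cell cycle were lower. Over all genes tested 10.2% were higher and 12.6% lower, the shares to set beside the counts of every list below. In the list of G2/M and mitosis, 24 of 42 genes were lower and 4 higher (median -0.85). Of 41 genes of DNA replication 20 were lower and 3 higher (median -0.78). The higher shares, 9.52% and 7.32%, were under the 10.2% of all genes. UBE2C, which hands ubiquitin to mitotic substrates, had 147, 140.0 and 153 CPM with miR-497-5p against 541, 482 and 545 CPM in controls (-1.83 ± 0.09, adjusted p 1.97e-13). PTTG1, securin, had 46.3, 53.3 and 48.7 CPM against 196, 194 and 185 CPM in controls (-1.96 ± 0.10). BIRC5, survivin of the chromosomal passenger complex, was lower too (-1.37 ± 0.09). The 4 mitotic members that were higher were the topoisomerase TOP2A (1.04), the proliferation marker MKI67 (0.68) and the kinetochore genes NDC80 (0.60) and CENPE (0.39), and their number was 2 without control replicate 1, control replicate 3 or miR-497-5p replicate 1. Among replication genes TK1, thymidine kinase, had 70.9, 74.5 and 72.6 CPM with miR-497-5p against 227, 218 and 219.8 CPM in controls (-1.61 ± 0.10, adjusted p 1.43e-11). ORC6 of the origin recognition complex (-1.57), GINS2 of the helicase (-1.29) and the flap nuclease FEN1 (-1.78) were lower as well. The 3 higher ones were MCM7 (0.55), POLD2 (0.28) and PRIM1, of few counts, and none was called without control replicate 1, miR-497-5p replicate 2 or miR-497-5p replicate 3. In bulk libraries fewer cells in a cell cycle phase and less RNA per cell cannot be told apart.

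The G1/S genes split by member, with 10 of 25 lower and 6 higher (median -0.42). MYBL2, a transcription factor of cycling cells, had 358, 353 and 363 CPM with miR-497-5p against 624, 648 and 668 CPM in controls (-0.85 ± 0.08, adjusted p 3.23e-08), and the CDK inhibitor CDKN2C was lower (-1.38 ± 0.17). TFDP2, a partner of E2F factors, had 186, 195.2 and 199 CPM with miR-497-5p against 93.4, 84.5 and 77.3 CPM in controls (1.18 ± 0.12, adjusted p 3.58e-08). The count of lower G1/S members was 6 without miR-497-5p replicate 1, and also 6 with a trend on exon length taken out. Of 17 checkpoint genes tested, 5 were lower and 2 higher (median -0.55). With PKMYT1 and CHEK1 these were RAD9A of the checkpoint clamp (-0.82), the fork protein TIMELESS (-0.87) and TP53BP1 of break repair (-1.54), while the higher ones were the kinase ATM (0.92) and the adaptor CLSPN (0.49). Only 1 was higher without control replicate 3 or miR-497-5p replicate 3. Of 22 genes of homologous recombination and the Fanconi pathway 5 were lower and 1 higher (median -0.43). FANCG of the Fanconi core complex (-1.20) and XRCC3, a recombination protein (-1.17), were among the lower ones, FANCB rested on few counts, and RBBP8 was the higher one (0.56). Of 25 targets of p53 7 were lower and 3 higher (median -0.33), or 28% and 12% against 12.6% and 10.2% of all genes. The apoptosis genes BAX (-0.75) and BBC3 (-1.10) were lower and the stress protein TP53INP1 was higher (1.46), with ZMAT3 (0.49) and MDM2 (0.33).

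Feedback genes of the ERK pathway were the list with the largest share of higher members. Of 18 tested 10 were higher and none lower (median 0.71), and 5 were called without control replicate 2. DUSP6, the phosphatase that switches off ERK, had 15.1, 22.3 and 23.4 CPM with miR-497-5p against 4.84, 1.75 and 4.8 CPM in controls (2.42 ± 0.35, adjusted p 9.01e-06). DUSP4, a nuclear ERK phosphatase, had 44.4, 43.7 and 47.6 CPM with miR-497-5p against 21.3, 18.0 and 18.5 CPM in controls (1.23 ± 0.17, adjusted p 6.27e-06). The ETS factor ETV4 (1.53) and the receptor signalling inhibitor SPRY2 (1.14) were higher as well. Of 15 AP-1 and immediate early genes, which also respond to ERK, 6 were lower and none higher, with a median of -0.13 that became 0.13 once a trend on exon length was taken out. FOSL1, the Fos-family member of many tumours, had 1603, 1504 and 1570 CPM with miR-497-5p against 2208, 2355 and 2296 CPM in controls (-0.55 ± 0.09, adjusted p 6.71e-05). KLF6 (-0.51), BATF3 (-1.02) and IER2 (-0.54) were lower, IER2 losing its call without control replicate 3 (adjusted p 0.0668), where 3 of the list were called.

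Among inflammatory and matrix-degrading genes more were called higher than lower. Of 20 inflammatory cytokines and chemokines tested 6 were higher and none lower (median 0.78), and 11 were higher once a trend on exon length was taken out. IL1B, interleukin 1β, had 34.9, 43.2 and 42.6 CPM with miR-497-5p against 17.0, 13.1 and 14.3 CPM in controls (1.45 ± 0.17, adjusted p 5.2e-07). CXCL8, interleukin 8, had 19.2, 15.8 and 12.3 CPM with miR-497-5p against 4.64, 4.66 and 2.98 CPM in controls (1.94 ± 0.32, adjusted p 5.84e-05). The monocyte attractant CCL2 (1.29) and the neutrophil attractant CXCL1 (1.03) were higher too, in groups that did not overlap. Of 17 plasminogen and metalloproteinase genes tested 7 were higher and 2 lower (median 0.21), 1 of them lower when any 1 library was left out. With MMP1 came the protease inhibitors SERPINE2 (0.81) and SERPINB2 (1.82), so the higher members included inhibitors as well as a collagenase. The lower ones were MMP14 (-0.38), a membrane-bound metalloproteinase, and TIMP3. TIMP3, an inhibitor of metalloproteinases, had 188, 180.5 and 192 CPM with miR-497-5p against 286, 293 and 265 CPM in controls (-0.59 ± 0.09, adjusted p 2.23e-05).

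In the fit of the 12 pull-down libraries all calls among the listed actin genes were higher and all among tubulins lower. Of 22 actin and YAP genes 8 were higher and none lower (median 0.31), with 1 lower without control replicate 1, miR-497-5p replicate 1 or miR-497-5p replicate 3. With the 6 libraries fitted alone 2 of these genes were lower. CALD1, caldesmon, an actin-binding protein, had 429, 403 and 412 CPM with miR-497-5p against 157, 140.4 and 145 CPM in controls (1.49 ± 0.14, adjusted p 4.36e-08). TAGLN, transgelin (1.26), ANKRD1, a YAP target (1.70), and TEAD1, the DNA-binding partner of YAP with an 8mer (0.62), were higher too. Of 16 tubulins and tubulin cofactors tested 10 were lower and none higher (median -0.40), led by ARL2. TUBG1, γ-tubulin of spindle poles, had 126, 116 and 121 CPM with miR-497-5p against 259.9, 289 and 263 CPM in controls (-1.16 ± 0.09), and the cofactor TBCB (-1.03) and TUBB4B (-1.05) were lower. Tubulin genes resemble each other and their pseudogenes, and only uniquely placed reads were counted, so their values are uncertain. In the mesenchymal and matrix list 7 of 28 genes were higher and 4 lower (median 0.29). VIM, vimentin, had 1591, 1565 and 1610 CPM with miR-497-5p against 814, 826 and 821 CPM in controls (0.95 ± 0.09, adjusted p 8.36e-09). The matrix genes TGFBI (1.04), LOX (0.95) and THBS2 (1.14) were higher as well, and SNAI2 (-0.71), COL4A2 (-0.72), COL6A1 (-0.41) and SPARC (-0.39) were lower. None of 13 integrin genes was called in edgeR's test (median 0.20), and 1 was higher without control replicate 2, miR-497-5p replicate 2 or miR-497-5p replicate 3. The groups did not overlap in 3 of them, 2 higher and 1 lower, against 17.1% and 18.3% of all genes.

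Metabolic genes moved in both directions. Of 26 glycolytic and hypoxia genes 9 were higher and 3 lower (median 0.32). GPI, which follows hexokinase in glycolysis, had 264, 242 and 282 CPM with miR-497-5p against 164, 165 and 172 CPM in controls (0.65 ± 0.09), while TPI1, a later enzyme of the pathway, had 186, 168 and 164 CPM against 277, 259.8 and 264 CPM in controls (-0.63 ± 0.09). The glucose transporter SLC2A3, with an 8mer, had 13.8, 11.3 and 13.1 CPM with miR-497-5p against 3.44, 4.43 and 5.63 CPM in controls (1.50 ± 0.23), and the mitophagy receptor BNIP3 was higher (0.87). Beside TPI1 the lower enzymes were PGAM1 (-0.72) and PFKL (-0.38), and without miR-497-5p replicate 3 only 1 of the list was lower. Cholesterol and fatty acid synthesis was lower in 13 of 30 genes and higher in none (median -0.35). MVK, mevalonate kinase, had 67.5, 65.1 and 63.6 CPM with miR-497-5p against 145, 180.0 and 157 CPM in controls (-1.30 ± 0.11, adjusted p 3.62e-09). The lipogenic factor SREBF1 (-0.99) and the fatty acid elongase ELOVL6 (-1.27) were lower too.

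Stress response lists had no common direction. The ATF4 list had 16.7% of members called each way and heat shock chaperones 14.3% each way. Over all genes 10.2% were higher and 12.6% lower. Of 24 genes of ATF4 and the unfolded protein response 4 were higher and 4 lower (median 0.12), 2 of them higher without control replicate 1 or miR-497-5p replicate 3. ATF4, the factor that names the pathway, had 1508, 1449 and 1497 CPM with miR-497-5p against 1044, 1086 and 1109 CPM in controls (0.46 ± 0.08), while SLC7A5, its amino acid transporter target, had 542, 533 and 585 CPM against 1590, 1691 and 1656 CPM in controls (-1.57 ± 0.08, adjusted p 2.51e-13). The partner chain SLC3A2 (-0.69) and the serine synthesis enzymes PSAT1 (-1.13) and PHGDH (-0.85) were lower with it, and SLC7A11 (0.87), PDIA4 (0.67) and CALR (0.26) were higher. Among 14 heat shock chaperones the cytosolic HSP90AB1 (0.94) and HSP90AA1 (0.78) were higher, and HSPE1 and HSPB1 (-1.08) were lower. Of 18 NRF2 and iron genes 7 were lower and 4 higher (median -0.38). TXN, thioredoxin, had 195.3, 204 and 186 CPM with miR-497-5p against 459.9, 432 and 432 CPM in controls (-1.18 ± 0.08, adjusted p 1.28e-10). The metallothionein MT2A (-1.13) and the quinone reductase NQO1 (-1.24) were lower, and the autophagy receptor SQSTM1 (0.72), the ferritin genes FTH1 (0.80) and FTL (0.96) and the cystine transporter SLC7A11 were higher.

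Nuclear genes of the respiratory chain were the list with the largest share of lower members. Of 76 tested 54 were lower and 2 higher (median -0.66), the higher ones being ATP5F1A (0.59) and UQCR11 (0.34), of which at most 1 was called when any 1 of 5 libraries was left out. COX5B, a subunit of cytochrome oxidase, had 373, 352 and 364 CPM with miR-497-5p against 1021, 1064 and 1005 CPM in controls (-1.50 ± 0.08, adjusted p 9.03e-13). COX7B of the same complex had 39.4, 34.6 and 43.6 CPM with miR-497-5p against 160.3, 143 and 153 CPM in controls (-1.95 ± 0.11). The complex I subunits NDUFA6 (-1.78) and NDUFB9 (-1.48) were lower too. Of 77 mitochondrial ribosomal proteins 45 were lower and 1 higher (median -0.63), with MRPL52 (-1.49), MRPS21 (-1.28) and MRPL24 (-0.97) beside MRPS18C and with MRPS5 (0.40) as the higher one. The 13 mRNAs of the mitochondrial genome itself lay on the other side, with 3 higher and none lower (median 0.39) and groups that did not overlap in 9, all higher, against 17.1% of all genes. MT-ND3, a complex I subunit, had 85.9, 92.3 and 84.2 CPM with miR-497-5p against 47.0, 50.02 and 46.8 CPM in controls (0.87 ± 0.14). MT-ATP6 was higher (0.66) and MT-CO2 (0.97, adjusted p 0.0252) lost its call when any 1 of the 6 libraries was left out, with adjusted p-values of 0.06 to 0.0782. With the 6 libraries fitted alone 9 of the 13 were higher. Mitochondrial genes took 1.189%, 1.25% and 1.161% of counts with miR-497-5p against 0.826%, 0.878% and 0.889% in controls.

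Components of the protein synthesis machinery differed in direction. Of 80 cytosolic ribosomal protein genes 42 were lower and 10 higher (median -0.28). RPS26 of the small subunit had 412, 384 and 395 CPM with miR-497-5p against 1339, 1363 and 1360 CPM in controls (-1.77 ± 0.08, adjusted p 8.41e-14). RPL35A of the large subunit had 474, 449 and 436 CPM with miR-497-5p against 1333, 1439 and 1376 CPM in controls (-1.61 ± 0.08). FAU (-1.30) and RPS27A (-1.45), which encode ribosomal proteins fused to a ubiquitin-like protein or ubiquitin, were lower too. These genes have many processed pseudogenes, and only uniquely placed reads were counted, so their levels are uncertain. The count of 10 higher members was 5 or 6 when any 1 library other than miR-497-5p replicate 2 was left out, and was 17 with the 6 libraries fitted alone. Translation factors had more higher than lower members, with 13 of 35 higher and 8 lower (median 0.17). EEF2, the elongation factor of translocation, had 6696, 6400 and 6845 CPM with miR-497-5p against 3452, 3404 and 3358 CPM in controls (0.96 ± 0.07, adjusted p 3.44e-10), and EIF3A (1.15) and EEF1A1 (0.58) were higher with it. EIF5A, an elongation factor for difficult peptide bonds, had 1390, 1347 and 1476 CPM against 2315, 2328 and 2388 CPM in controls (-0.74 ± 0.08). Proteasome subunits were lower in 13 of 31 genes and higher in 2 (median -0.29), with the core subunits PSMB3 (-1.45), PSMB2 (-0.88) and PSMA4 (-0.71) and the lid subunit PSMD8 (-0.67) foremost, and the base subunits PSMC2 (1.26) and PSMC3 (0.46) were the higher ones. With a trend on exon length taken out 8 were lower and 4 higher, and with the 6 libraries fitted alone 5 were higher.

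Genes of the microRNA pathway and of RNA processing are the machinery that a mimic enters. Of 22 genes of the microRNA pathway 4 were higher and 1 lower (median 0.10). TNRC6A, the GW182 protein that Argonaute binds, had 248, 246 and 280.5 CPM with miR-497-5p against 158, 148 and 149 CPM in controls (0.77 ± 0.10, adjusted p 4.36e-06). Its paralogue TNRC6B (0.82) and the decapping cofactor DCP1A (0.85), both with an 8mer, and the deadenylase subunit CNOT7 (1.02) were higher too, and TARBP2, the partner of Dicer, was lower (-0.72). Of 28 splicing and polyadenylation factors 12 were lower and 2 higher (median -0.42). CSTF3 of the cleavage stimulation factor had 7.98, 6.62 and 7.92 CPM with miR-497-5p against 32.9, 26.4 and 30.5 CPM in controls (-1.98 ± 0.19, adjusted p 2.1e-08). SRSF1, a splicing activator (-1.14), and NUDT21, which sets the choice of poly(A) site (-1.36), were lower, and TRA2B (0.77) and SRSF11 (0.47), both splicing regulators, were higher.

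Long noncoding RNAs held the most abundant transcript among the higher genes. MALAT1 (chromosome 11, 65497762 to 65506516), a nuclear RNA of splicing speckles, had 17390, 17620 and 19610 CPM with miR-497-5p against 6940, 6351 and 6018 CPM in controls (1.50 ± 0.10, adjusted p 5.24e-10). All 3 miR-497-5p libraries held over 2 times the highest control value of MALAT1. OIP5-AS1, a cytoplasmic RNA known as Cyrano, had 323, 270.1 and 316 CPM with miR-497-5p against 84.5, 97.6 and 83.9 CPM in controls (1.77 ± 0.14, adjusted p 5.02e-10). NORAD, which binds Pumilio proteins (1.03), and NEAT1, the scaffold of paraspeckles (0.73), were higher as well, and in all 7 of 25 listed noncoding RNAs were higher and 3 lower (median 0.08), namely SNHG1 (-0.48), SNHG12 (-0.65) and SNHG32 (-0.39), with 1 lower without control replicate 2, miR-497-5p replicate 1 or miR-497-5p replicate 2. With a trend on exon length taken out none of the listed RNAs was lower, and without 12 h libraries rich in squamous markers 5 were. For RNAs antisense to or inside other genes, such as OIP5-AS1, reads of the partner cannot be told apart. Of 26 interferon response genes tested 2 were higher and 2 lower (median -0.17), or 4 lower without miR-497-5p replicate 2. With all libraries 7.69% were called each way, under the 10.2% higher and 12.6% lower of all genes. ISG15 (-0.65) and IFI27 (-0.57) were lower, IFIT3 was higher (0.84) but not without control replicate 1, miR-497-5p replicate 1 or miR-497-5p replicate 2 (adjusted p 0.0603 to 0.117), and BST2 had 26, 7 and 3 counts with miR-497-5p against 0 in each control library. Lysosome and proton pump genes were lower in 5 and higher in 3 of 29 (median 0.02). Their shares, 10.3% higher and 17.2% lower, were near those of all genes (10.2% and 12.6%). The protease CTSB (0.40) was higher, and the protease CTSL (-0.76) and the saposin precursor PSAP (-0.50) were lower. The other calls were the proton pump subunits ATP6V1A (1.16) and ATP6V1C1 (0.40) on the higher side, and ATP6V1F (-0.52), ATP6V0C (-1.38) and the galactosidase GLA (-1.02) on the lower.

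**Figure D3:**
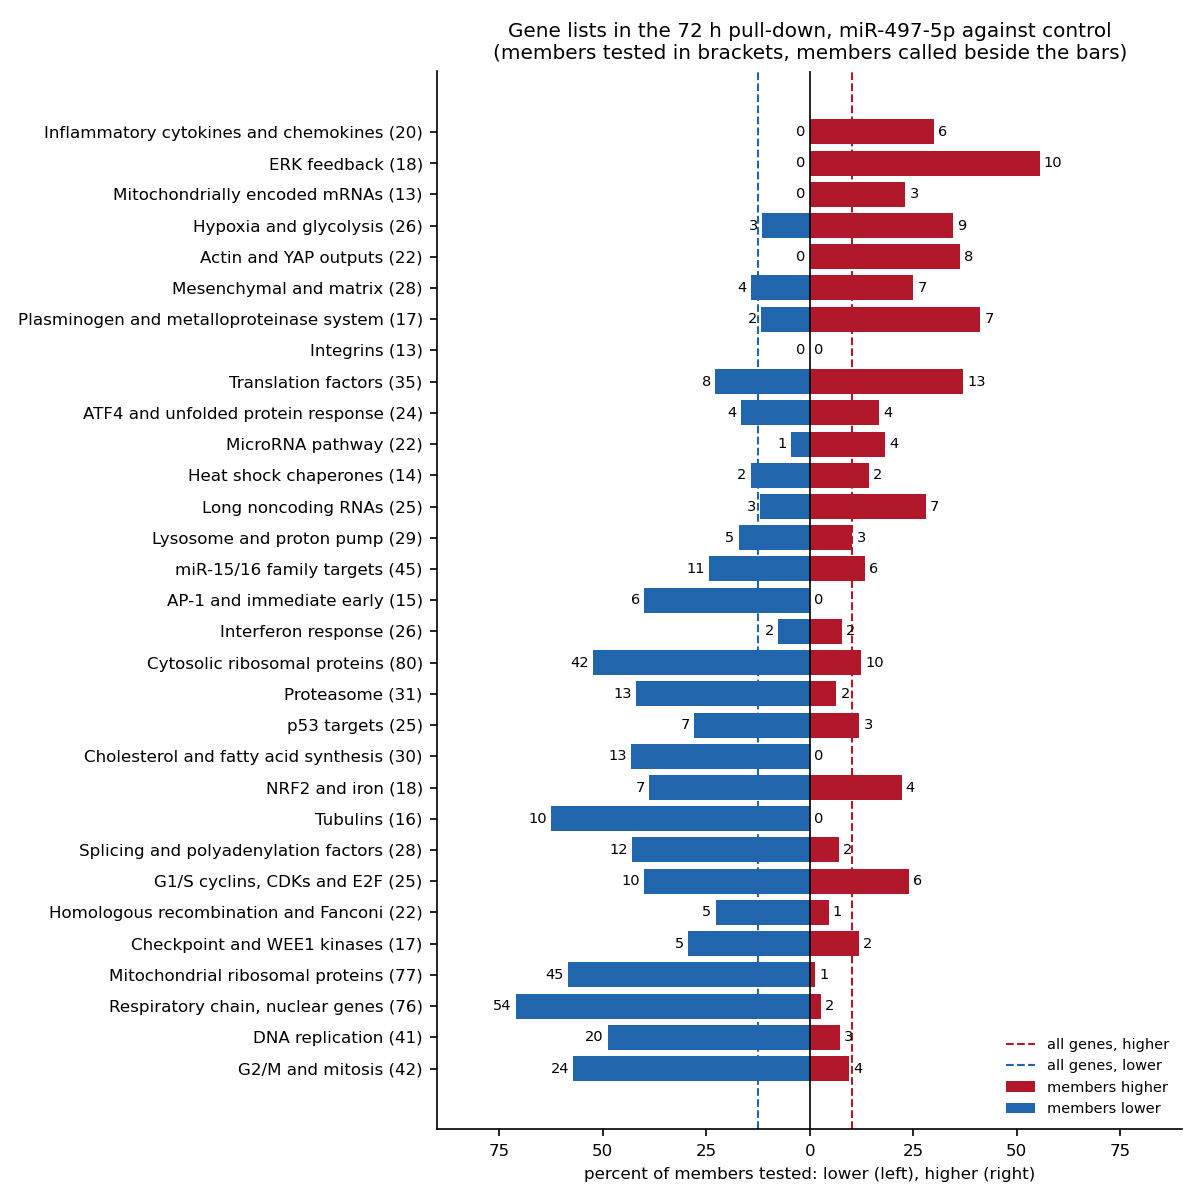
Share of each gene list called higher (red, to the right) and lower (blue, to the left) in the 72 h pull-down with miR-497-5p against control, ordered by the median log2 fold change, with the number of members tested in brackets and the number called beside each bar; dashed lines mark the shares over all genes tested. Inflammatory and ERK feedback genes stand at the top, and G2/M genes and DNA replication at the bottom.

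The share of genes called higher rose with the length of a gene's exons. The 5 equal groups by summed exon length ran from 2093 bases and less to 7615 bases and more. From the shortest to the longest group 3.97%, 6.81%, 11.1%, 11.7% and 17.3% of genes were higher. In the same order 11%, 16.9%, 14.3%, 12% and 8.52% were lower, a share that was largest in the group after the shortest. Median exon length was 5949 bases among higher genes, 3916 among lower genes and 4377 over all. Median log2 fold changes from the shortest to the longest group were -0.01, -0.10, -0.03, 0.00 and 0.14 in the pull-down, and 0.05, -0.09, -0.05, -0.01 and 0.12 in RNA-seq at 72 h. With a smooth trend on exon length taken out of each pull-down library, 2071 genes were higher and 1897 lower. In that fit 48 of 76 nuclear respiratory genes were lower, 36 of 77 mitochondrial ribosomal proteins, 22 of 42 mitotic genes and 16 of 41 replication genes, while 34 ribosomal protein genes were lower and 20 higher and 9 of 13 mitochondrially encoded mRNAs were higher. Median summed exon length was 2468 bases in the nuclear respiratory list and 2979 bases in the cytosolic ribosomal protein list, both below the 4377 over all genes.

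The pull-down at 72 h moved together with the RNA of the same cells. Across 9440 genes at 5 CPM or more on average, the log2 fold changes of the pull-down and RNA-seq, taken from 1 fit of the 12 libraries at 72 h, correlated at 0.711 (Pearson) and 0.7 (Spearman). These are correlations across genes, which are not independent replicates, and each library's scaling is shared by all its genes. Of 1728 higher pull-down genes also tested in that fit, 1117 (64.6%) were called higher in RNA-seq and 48 lower, and of 2173 lower ones 1491 (68.6%) were called lower and 70 higher. These counts depended on the fit. With a variance of its own for each assay, in limma voom, RNA-seq called 1371 of the higher genes higher and 101 lower. Of the lower genes it called 1805 lower and 146 higher. In the edgeR fit of both assays RNA-seq called 2348 genes (13.9%) higher and 2984 (17.7%) lower, 31.6% in all, and the pull-down itself 37%. Of the RNA-seq calls also tested in the pull-down fit, 47.6% of 2348 and 50% of 2983 carried the same call there. The assays share 1 estimate of spread in the fit of both (biological coefficient of variation 0.175, against 0.316 in the 6 pull-down libraries alone). The 37% and the tests of the difference below therefore rest on a smaller spread than the pull-down's own. MMP1 (RNA-seq 2.95), PKMYT1 (-2.32), H2AX (-2.04), VIM (1.09) and DUSP6 (2.71) are examples that changed in both.

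A direct test of the effect in the pull-down less that in RNA-seq was passed by 1260 of 16896 genes (7.46%) with a higher and 1185 (7.01%) with a lower effect in the pull-down. That split depended on the scaling, since library totals in place of TMM gave 2085 higher and 747 lower. With a variance of its own for each assay, in limma voom, 1368 were higher and 1056 lower. MALAT1 was at 1.48 in the pull-down and 0.20 in RNA-seq, both in the fit of the 12 libraries at 72 h (difference 1.27, adjusted p 1.01e-09). CCND1 was at 0.03 in RNA-seq (difference 0.54, adjusted p 1.25e-06), and E2F3 at 0.37 (difference 1.11, adjusted p 0.000617). PHACTR2 was lower in RNA-seq (-0.32) and higher in the pull-down (difference 1.53, adjusted p 7.54e-08). CDK4 was lower in both, by less in the pull-down (difference 0.86, adjusted p 0.0217). The same held for ARL2, at -2.085 in RNA-seq (difference 0.36, adjusted p 0.0128). HMGA2 was higher in both, at 2.2 in RNA-seq (difference -0.155, not called). The largest differences upward, at a mean of 5 CPM or more in that fit, were those of SLC35G1 (2.33), ENSG00000205663 (2.202), SYNC (2.12), HSPG2 (2.12) and MAFK (2.12). The largest downward were those of CSTF3 (-2.19), ZNF597 (-2.17), MRPS18C (-1.85), YEATS4 (-1.82) and ACOT13 (-1.81). In the pull-down SYNC had only 53, 8 and 34 counts with miR-497-5p against 0, 27 and 13 in controls. MAFK had 63, 21 and 27 counts there against 46, 28 and 34 in controls. HSPG2 was not called in the pull-down. In RNA-seq HSPG2 had 5.53, 4.74 and 5.07 CPM with miR-497-5p against 21.3, 20.4 and 21.9 CPM in controls.

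Ribosomal protein and respiratory genes held many of the lower effects. Of 80 ribosomal protein genes 58 had a lower and 9 a higher effect in the pull-down than in RNA-seq, where their median was 0.07 against -0.30 for the pull-down in the same fit. Of 76 nuclear respiratory genes 39 had a lower and 5 a higher effect, with medians of -0.68 in the pull-down and -0.31 in RNA-seq. RPL35A (-1.43), RPS26 (-1.24) and COX7B (-1.46) were among the lower ones, as were, outside these lists, TXN (-1.26) and HSPE1 (-1.25). Of the 45 published family targets 12 had a higher and 4 a lower effect, and of the 25 G1/S genes 11 had a higher and 1 a lower effect. For mitotic genes the medians were -0.88 in the pull-down and -0.80 in RNA-seq, with 8 higher and 5 lower. For ERK feedback genes they were 0.68 in the pull-down and 0.19 in RNA-seq, while the median of the differences gene by gene was 0.15. The test of the difference was passed by 2 of 18 genes, DUSP4 (0.13 in RNA-seq) and ETV4 (0.07 in RNA-seq). DUSP6 had the smaller effect in the pull-down (difference -0.31, not called). The pull-down libraries were from a cytoplasmic extract, while the sources used here name no fraction for RNA-seq, so binding and the RNA fraction cannot be told apart in these differences.

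**Figure D4:**
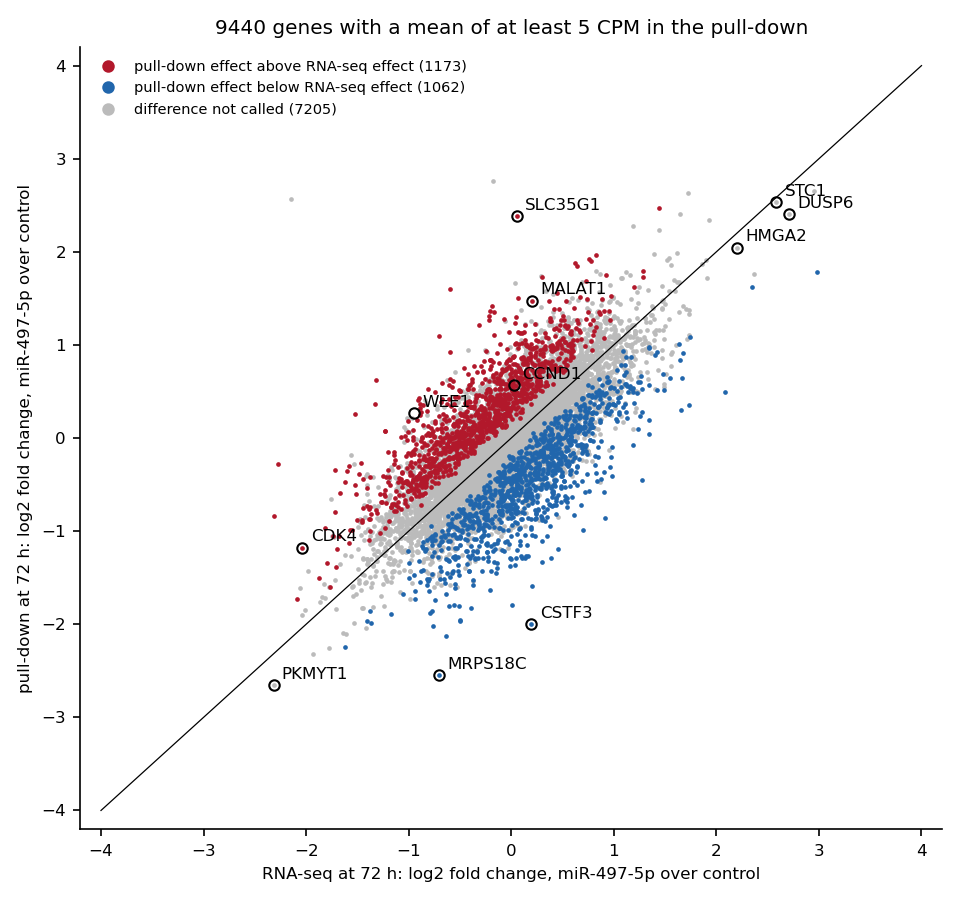
Log2 fold change at 72 h, miR-497-5p over control, in the pull-down (vertical axis) against RNA-seq (horizontal axis) for the 9440 genes at 5 CPM or more on average in the pull-down, with the line of equal effect; red marks 1173 genes with a higher and blue 1062 genes with a lower effect in the pull-down. The cloud runs along the line, with MALAT1 and SLC35G1 above it and MRPS18C and CSTF3 below.

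More genes were called at 72 h than at 12 h. Against the 1776 and 2194 genes at 72 h, at 12 h 57 genes (0.326%) were higher and 47 (0.269%) lower in the pull-down, in the same fit. The difference of the effects was higher at 72 h for 1038 genes (5.94%) and lower for 1096 (6.27%), or for 854 and 1407 genes with library totals in place of TMM. WEE1 was called at 12 h, with 58.4, 39.6 and 35.3 CPM with miR-497-5p against 16.1, 14.0 and 10.6 CPM in controls (1.71, adjusted p 0.00538), and its effect was smaller at 72 h (adjusted p of the difference 0.0332). E2F3 was called at both times, at 1.08 at 12 h (adjusted p 0.0021), and so was HMGA2 (0.73 at 12 h, adjusted p 0.00864). Nuclear respiratory genes had a lower effect at 72 h than at 12 h in 41 of 76, mitochondrial ribosomal proteins in 28 of 77 and mitotic genes in 18 of 42. Squamous markers summed to 121 to 152 CPM in the 6 libraries at 72 h, and at 12 h they summed to 1140, 838 and 279 CPM with miR-497-5p against 183, 284 and 846 CPM in controls. Without the 3 libraries over 500 CPM, a limit chosen after seeing the data, 1214 genes had a higher and 1085 a lower effect at 72 h, of which 792 and 832 were called with them.

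At like UTR length, a larger share of genes carrying a 7mer-m8 or 8mer were called lower at 72 h than of genes without a 6mer, a description with no test. Of the 687 genes with an 8mer, 14.4% were higher and 13.4% lower (median 0.07), against 11.2% and 14.7% of 7760 genes without a 6mer (median -0.03) and 11.5% and 15.1% of all 14005. For a 7mer-m8 the shares were 11.7% higher and 17% lower (median -0.04). At 12 h 14 of the 687 genes with an 8mer (2.04%) were higher, against 0.258% of those without a 6mer. UTRs with an 8mer were longer, with a median of 3299 bases against 743 without a 6mer, and the medians of genes without a 6mer went up with UTR length. Within each of 5 classes of UTR length, genes with a 7mer-m8 or 8mer had a lower median than genes without a 6mer. From the shortest to the longest class 27.1%, 27.2%, 19%, 16.1% and 9.2% of genes carrying either site were lower, against 18.5%, 16.5%, 11.9%, 8.15% and 7.56% of genes without a 6mer. In the same order 5.21%, 6.07%, 9.44%, 12.1% and 17.7% of genes with such a site were higher, against 7.79%, 10.1%, 12.2%, 16.6% and 23% of genes without a 6mer. In UTRs of up to 500 bases the medians were -0.37 with such a site and -0.13 without, and in UTRs over 4000 bases 0.13 and 0.27. RNA-seq showed the same order, with -0.34 and -0.12 in the shortest class and 0.12 and 0.31 in the longest. For the pull-down effect less the RNA-seq effect the order was the other way for 8mers in all 5 classes, with medians of 0.11, 0.12, 0.09, 0.03 and 0.06 with an 8mer against -0.01, 0.01, -0.04, -0.09 and -0.05 without a 6mer. With a 7mer-m8 or 8mer these medians were -0.02, 0.09, 0.06, 0.03 and 0.02, below those without a 6mer in the shortest class alone. For the 8mer alone the median was above that of genes without a 6mer in UTRs of more than 500 and up to 1000 bases (-0.04 and -0.10) and of more than 1000 and up to 2000 bases (0.04 and 0.00), and below it in the other 3 classes. These are counts and medians over genes with no test, and the classes held 20 to 267 genes with an 8mer, the shortest only 20.

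**Figure D5:**
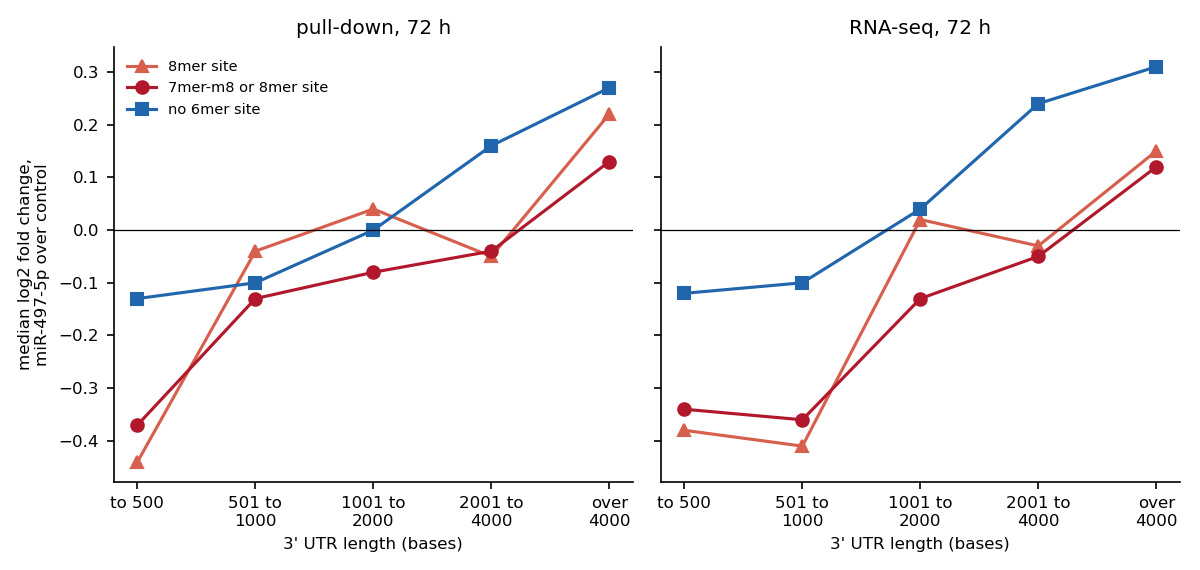
Median log2 fold change at 72 h, miR-497-5p over control, by 3′ UTR length class in the pull-down (left) and RNA-seq (right), for genes with an 8mer site (triangles), a 7mer-m8 or 8mer site (circles) and no 6mer site (squares). In the pull-down the circles lie below the squares in all 5 classes, from -0.37 against -0.13 in the shortest to 0.13 against 0.27 in the longest.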

How the data were processed

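Poly(A) libraries of 150-base read pairs were trimmed with Trimmomatic 0.36 and aligned to GRCh38 with STAR 2.5.2b, per the submitters' processing notes, and unique reads within exons were counted with featureCounts of Subread 1.5.2. The authors deposited 1 table of raw read counts per gene for each library. The annotation release and the strand setting are not given in the sources used here. Of 57500 gene identifiers 98.1% matched a symbol in GENCODE release 44.

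Counts were analysed in edgeR 4.0.16 (R 4.3.3) after TMM scaling, with its filter on low counts by group and the robust quasi-likelihood test, in 1 fit of the 12 pull-down libraries, so that all groups share 1 estimate of the spread. A second fit of the 12 libraries at 72 h tested the effect in the pull-down less that in RNA-seq. The Benjamini-Hochberg adjustment of p-values covered every gene of a fit. CPM are scaled by TMM unless said to be per total count, and totals of 8262425 to 30650982 counts limit precision most in miR-497-5p replicate 2. The biological coefficient of variation was 0.349 in the first fit and 0.175 in the second, and 0.316 in the 6 pull-down libraries at 72 h alone. Summaries were made in Python 3.11.15 with pandas 2.3.3. The 72 h effect in the first fit was tried on simulated data, with edgeR and with DESeq2, and the outcome is not reported here. Those data had the same spread for all genes and, apart from the planted changes, no difference between times. They were thus simpler than the libraries. The second fit and the difference between times were not tried on simulated data.

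Genes named are the series' own 6, the 10 largest changes (mean of at least 5 CPM, groups not overlapping) and 5 smallest p each way, up to 4 members per list with the smallest p, the 5 largest differences each way between assays and times, and the printed sites. Members of counts of 5 or fewer and WEE1's and HMGA2's 12 h values were named after their values were seen. The comparison, its members and all gene lists were chosen with earlier results of these data known. Alternatives were library totals, DESeq2 size factors, other filters, a replicate block, DESeq2 1.42.0, leaving out each library, the 6 libraries alone, thinning to the smallest total and leaving out mitochondrial genes. An exon length offset, limma 3.58.1 voom weights and leaving out 12 h libraries rich in squamous markers were added after seeing the data. Some genes that the rule names are not reported here. RNA-seq at 12 h was not used here.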

Additional observations from a re-analysis of the deposited data

Results flagged for a closer look

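The effect of miR-497-5p on the pull-down differed between the times by a test of the difference itself, higher at 72 h for 1038 genes and lower for 1096. The genes named below are from the 5 largest differences each way at a mean of 5 CPM or more over the 12 pull-down libraries, and their values are on the log2 scale, 72 h effect minus 12 h effect. Each passed edgeR's quasi-likelihood test with Benjamini-Hochberg adjustment, and each was recomputed without the 3 libraries at 12 h that held over 500 CPM of squamous markers.

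On the lower side, CFTR (-4.32), a chloride channel, was below 1 CPM in the 12 h controls alone. At 72 h CFTR had 7.03, 7.29 and 8.88 CPM with miR-497-5p against 4.54, 7.3 and 6.36 CPM in controls, and at 12 h it had 8.71, 5.54 and 4.48 CPM with miR-497-5p against 0.0471, 0.387 and 0.286 CPM in controls. The CFTR groups overlapped at 72 h and stood apart at 12 h. KIF1A (-4.17 as fitted), a motor of axonal transport, was below 1 CPM in all 6 libraries at 72 h, with 3, 0 and 0 counts with miR-497-5p against 15, 6 and 15 counts in controls. At 12 h KIF1A had 19.1, 63.9 and 62.1 CPM with miR-497-5p against 22.0, 19.8 and 19.6 CPM in controls, groups that overlapped. Its 72 h effect was -2.24 to -6.54 when 1 library was left out, so the size of the difference is uncertain. KRT80 (-3.07), a keratin, had 3.75, 3.65 and 4.81 CPM with miR-497-5p against 7.43, 10.1 and 8.42 CPM in controls at 72 h, and 22.8, 17.0 and 21.1 CPM with miR-497-5p against 2.73, 8.18 and 4.39 CPM in controls at 12 h, so its direction was opposite at the 2 times. ZNF597 (-2.82) was lower as well, with only 18, 5 and 12 counts with miR-497-5p against 52, 78 and 90 in controls at 72 h.

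On the higher side, NSRP1P1 (4.12 as fitted) is a processed pseudogene whose reads its parent gene may share. NSRP1P1 had 11.6, 21.5 and 21.2 CPM with miR-497-5p against 4.49, 5.9 and 4.11 CPM in controls at 72 h and was under 1 CPM in all 6 libraries at 12 h, so its 12 h effect and the size of the difference rest on almost no counts. JPH1 (2.87), a protein of membrane junctions, had 4.33, 3.92 and 2.77 CPM with miR-497-5p against 1.35, 0.777 and 1.27 CPM in controls at 72 h, and 4.17, 6.98 and 6.32 CPM with miR-497-5p against 11.9, 13.0 and 14.6 CPM in controls at 12 h. JPH1 was above the controls at 72 h and below them at 12 h in all 3 libraries. SATB1 (2.78) and CDH15 (2.61), a cadherin of muscle, were higher at 72 h in groups that did not overlap. ENSG00000269570 (2.72 as fitted) was below 1 CPM at 12 h in all 6 libraries, so the size of its difference rests on few counts, and without the libraries rich in squamous markers its difference was 2.76 with an adjusted p of 0.164, so the call was lost. The other differences named here kept their call without those libraries, CDH15 at a larger difference of 4.23. What the squamous markers contributed to these differences was not tested.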

How the results depend on the processing

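The counts of 1776 higher and 2194 lower genes at 72 h stayed within 1.5 times of themselves under each alternative run, from 1379 to 2223 higher and from 1853 to 2415 lower, with 2223 and 2193 by DESeq2 and 2085 and 2115 by limma with voom weights. Leaving out 1 library gave 1379 to 1555 higher and 1853 to 2018 lower genes. In the fit of both assays at 72 h, whose spread was smaller, the pull-down counts were 2883 and 3376. The test of the difference between assays gave 2085 higher and 747 lower genes with library totals in place of TMM, and 1307 to 1523 higher and 1247 to 1364 lower without 1 library. The difference between times gave 801 to 950 higher and 906 to 1015 lower without 1 library. Replicate numbers did not pair the libraries, with correlations of their deviations of -0.005, -0.009 and -0.029 for the numbers 1, 2 and 3. With the replicate block 1673 genes were higher and 2109 lower at 72 h, 1110 and 1014 differed between assays, and 1006 and 1039 between times. Of 160 named genes that were called, 150 were called under every alternative run and none changed sign, while others, among them IER2, MT-CO2, IFIT3, ATP6V0C, GATA4, KRT18, ZNF597, KIF1A and KRT80 missed the threshold in at least 1. Among genes not called, leaving out 1 library moved the log2 fold change of WEE1 between -0.22 (without miR-497-5p replicate 1) and 0.59 (without replicate 2), and that of VEGFA between -0.13 (without miR-497-5p replicate 2) and 0.50 (without replicate 3). That of HSPG2 lay between -0.10 (without miR-497-5p replicate 1) and 0.32 (without replicate 2), with -0.02 without control replicate 3 and -0.07 without miR-497-5p replicate 3, and was -0.14 with the exon length offset. The cause of these changes was not tested. No median of a gene list changed sign under library totals or DESeq2 size factors. With 8262425 counts, miR-497-5p replicate 2 sets the depth at which genes of few counts can be compared.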
